A study of Bos taurus with 27 samples.

Results

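RGS2 and CCL14 are 2 of the 24616 genes counted in the colon of 27 newborn calves, and they were selected on their measured levels, as the genes that differed most sharply between groups of calves. The genes whose levels follow each of them were looked for among the 11734 core genes, that is, the genes that reached 1 CPM (the reads of a gene scaled to one library size for all calves) in every calf. Neither RGS2 nor CCL14 is a core gene itself, since RGS2 was under 1 CPM in 5 calves and CCL14 in 1 calf. All calves were Holstein males sampled at 51 h of age, separated from their dams at birth, tube-fed pooled and pasteurized colostrum, and afterwards given milk replacer. The first colostrum came at birth (TRT0), at 6 h (TRT6) or at 12 h (TRT12). Each of the 3 treatments held 4 calves of primiparous dams (H) and 5 calves of multiparous dams (C), which gives 6 groups such as TRT0_H and TRT0_C. The treatment is given by the sample labels, while dam parity is known only from the study's own sample sheet. RNA came from a whole segment of colon just beyond the ileo-cecal junction, so that it holds epithelium, stroma, muscle and immune cells together, and in such tissue fewer cells of a type and less RNA per cell cannot be told apart. Per calf, between 1163791 and 4202593 counts fell in genes (median 2215402). The study reports far more reads per sample than these sums, and the sources used here do not explain the gap. Depth below therefore means that of the deposited counts, not of the sequencing.

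RGS2, regulator of G protein signaling 2, speeds up the GTP hydrolysis of the Gq alpha subunit and so shortens the response of cells to hormones and transmitters that act through Gq. It is best known in smooth muscle, where it opposes contraction and is activated by the cyclic GMP dependent kinase, and its own transcript is induced quickly by stimulation, as those of immediate early genes are. CCL14 is a CC chemokine that is secreted constitutively by several tissues and becomes a stronger ligand of CCR1, a receptor of monocytes and lymphocytes, once its amino-terminal end has been trimmed. Genes whose transcripts rise and fall together from animal to animal often share a cell type or a stimulus, and this is why partners of a gene are sought across animals. Partners were sought both across all calves and inside groups, because genes may differ together between groups or from calf to calf inside a group.

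RGS2 (ENSBTAG00000034366) was scarce, with 4.05 ± 3.21 CPM (SD, n = 27) and between 0 and 23 reads per calf. The RefSeq gene table (ARS-UCD2.0) lists 2 loci that carry the name RGS2, and nothing in the sources used here ties the counted identifier to either, so reads of a near-identical copy may be missing from or mixed into these counts. In the TRT0_H calves, RGS2 was at 1.27, 0.412, 0 and 1.44 CPM. In the TRT0_C calves it was at 4.04, 8.38, 6.29, 10.2 and 7.55 CPM. All 5 TRT0_C calves thus lay above all 4 TRT0_H calves. In the TRT6_H calves RGS2 was at 7.22, 10.3, 5.73 and 3.14 CPM, and in the TRT6_C calves at 2.37, 6.06, 2.37, 4.14 and 3.44 CPM. These groups overlapped. In the TRT12_H calves it was at 9.13, 1.31, 4.997 and 4.92 CPM, and in the TRT12_C calves at 0, 0.959, 0, 2.20 and 1.47 CPM, so that only TRT12_H replicate 2 fell inside the range of TRT12_C. The group means, from high to low, were 7.29 ± 2.30 CPM in TRT0_C, 6.59 ± 2.98 in TRT6_H, 5.09 ± 3.19 in TRT12_H, 3.68 ± 1.53 in TRT6_C, 0.926 ± 0.954 in TRT12_C and 0.780 ± 0.687 in TRT0_H (SD, n = 5 for C and 4 for H). Each group overlapped its neighbours in this order except TRT6_C and TRT12_C, whose nearest calves were at 2.37 and 2.20 CPM. These levels are a description only, since the gene was chosen for them.

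CCL14 (ENSBTAG00000010738) was somewhat better covered, with 6.57 ± 3.65 CPM (SD, n = 27) and between 1 and 45 reads per calf. In the TRT0_H calves, CCL14 was at 4.65, 4.12, 3.16 and 5.28 CPM, and in the TRT0_C calves at 7.68, 12.8, 9.96, 4.87 and 5.81 CPM. In the TRT6_H calves it was at 2.26, 3.16, 3.64 and 0.784 CPM, and in the TRT6_C calves at 9.49, 10.5, 10.8, 16.95 and 8.59 CPM. The TRT6 calves therefore separated completely by the parity of the dam. In the TRT12_H calves CCL14 was at 7.61, 1.97, 7.61 and 8.75 CPM, and in the TRT12_C calves at 5.79, 3.83, 5.16, 4.77 and 7.33 CPM. The order of the means differed from that of RGS2, with 11.3 ± 3.29 CPM in TRT6_C, 8.22 ± 3.21 in TRT0_C, 6.48 ± 3.06 in TRT12_H, 5.38 ± 1.30 in TRT12_C, 4.30 ± 0.897 in TRT0_H and 2.46 ± 1.26 in TRT6_H. Neighbours in that order overlapped in every case. TRT6_H, which had the second highest mean of RGS2, had the lowest mean of CCL14.

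**Figure D1:**
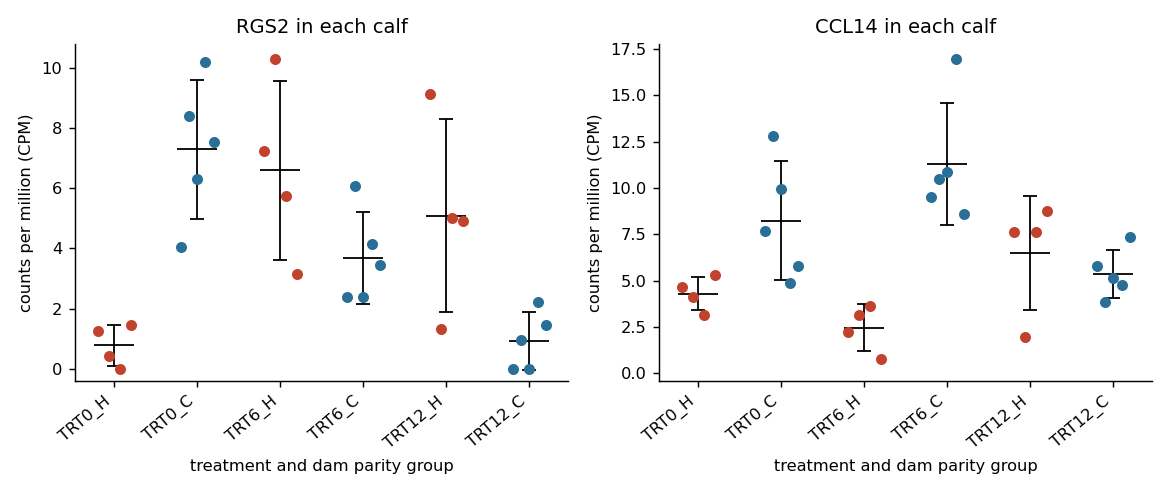
CPM of RGS2 (left) and CCL14 (right) in each of the 27 calves, by treatment and dam parity group, with H calves in red and C calves in blue and with bars for the mean and SD of each group. RGS2 ranged from 0 to 10.3 CPM and CCL14 from 0.784 to 16.95 CPM, and the groups stood in a different order for the 2 genes.

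The depth of the deposited counts limits how finely the calves can be ranked. The 3 calves with no RGS2 read (TRT0_H replicate 3, TRT12_C replicate 1 and TRT12_C replicate 3) are at 0 with 95% intervals (Clopper-Pearson) that end at 1.66, 1.64 and 2.38 CPM, and 3 counts would stand for 1.35, 1.34 and 1.93 CPM in their libraries. In TRT12_H replicate 2, 4 reads of RGS2 gave 1.31 CPM with an interval of 0.358 to 3.36 CPM, and 6 reads of CCL14 gave 1.97 CPM with an interval of 0.722 to 4.28 CPM. At the other end, the 45 reads of CCL14 in TRT6_C replicate 4 gave 16.95 CPM with an interval of 12.4 to 22.7 CPM. Such intervals cover counting error only. Within groups, counting error alone amounted to 49.6% of the variance of RGS2 and 54.8% of that of CCL14, so that a partner would be seen with a lower correlation than the transcripts themselves have. Of the sum of squares on the log2 scale, 71.7% of RGS2 and 60.8% of CCL14 lay between the 6 groups. No difference was called for either gene between the 3 sequencing lanes that the run names give (edgeR quasi-likelihood test, adjusted p = 0.935 for RGS2 and 0.845 for CCL14), in a fit that called 584 of 13943 genes (4.19%). No relation to the total count of a calf or to the share of its 10 most abundant genes passed the test for either gene (adjusted p = 0.925 over the 8 relations computed, permutation test, two-sided).

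Did RGS2 and CCL14 move together? Between groups they did not follow one another, and the 6 group means of log2 CPM had a correlation of 0.03, given as a description. Over the 27 calves, Pearson's r was 0.21 (p = 0.298) and Spearman's rho was 0.20 (p = 0.310, both permutation tests, two-sided). Both tests permuted calves freely over the groups, and both genes were chosen for their differences between groups. These 2 tests therefore cannot decide whether the genes move together apart from that choice. Leaving out the 2 calves farthest from the median of RGS2 (TRT0_H replicate 3 and TRT12_C replicate 1) gave an r of 0.16. Within groups, where each calf was taken as its deviation from the mean of its own group, r was 0.50 (p = 0.0326) and rho was 0.39 (p = 0.0577, calves permuted within groups). None of these 4 values passed the correction for having computed all of them, with an adjusted p of 0.115 for both within-group values and of 0.310 for both values across calves. The deviations of the 2 genes had the same sign in 18 of 27 calves, 12 of them above and 6 below their group means on both.

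The within-group relation rested on few calves. In TRT12_H replicate 2, RGS2 lay 1.31 and CCL14 1.30 log2 units below the mean of the group, and without that calf r was 0.27. Its library held 3048249 counts, more than the median, while that of TRT6_H replicate 4 held 1274767. Without the 2 calves farthest from the median of RGS2 (TRT12_H replicate 2 and TRT12_C replicate 1), r was 0.30 (p = 0.186, permutation test). Without TRT12_H replicate 2 and TRT6_H replicate 4, which was 0.76 and 0.87 log2 units below its group, r was 0.11. Leaving out any single calf kept r between 0.27 and 0.58. Inside lanes, r was 0.62 in lane 1 and 0.46 in lane 2 (11 calves each), and the 5 calves of lane 3 were too few for a value.

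The relation was then computed separately by the parity of the dam. Over the 12 H calves, the deviations of RGS2 and CCL14 had an r of 0.83, whereas over the 15 C calves r was 0.03. The difference of 0.80 had a p of 0.0172 when parity was permuted within treatments, a comparison chosen after the values were seen. Without TRT12_H replicate 2 the H calves had an r of 0.65 and the difference a p of 0.0828 (permutation test), and without TRT6_H replicate 4 as well r was 0.44 and p was 0.282. Both calves are among the H calves.

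**Figure D2:**
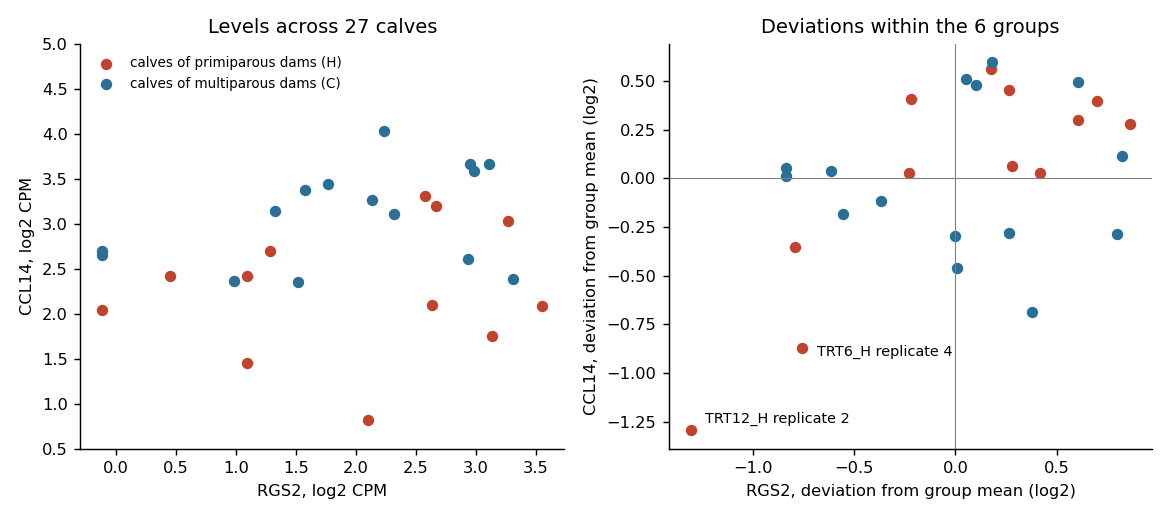
RGS2 against CCL14 in the 27 calves as log2 CPM (left, r = 0.21) and as deviations from the mean of each calf's group (right, r = 0.50), with H calves in red and C calves in blue. On the right, TRT12_H replicate 2 and TRT6_H replicate 4 lie apart at the lower left, and r is 0.11 without them.

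Against the 11734 core genes and with all 27 calves, CCL14 stood high among the partners of RGS2 within groups, but was not the closest. The r of 0.50 behind this order was 0.27 without TRT12_H replicate 2. The order was not computed without that calf. Of the core genes, 51 (0.435%) had a higher r with RGS2 than CCL14 had, and 98 (0.835%) had a higher r with CCL14 than RGS2 had. Across calves the same counts were 1276 (10.9%) and 1166 (9.94%). No core gene passed the test as a partner of either gene. The fits across calves hold the group differences for which RGS2 and CCL14 were chosen. The edgeR quasi-likelihood slopes on log2 CPM of RGS2 called 0 of 11734 genes (0%) across calves and 0 (0%) within groups at an adjusted p of 0.10, and the slopes on CCL14 likewise called 0 (0%) and 0 (0%). At an unadjusted p under 0.05 there were 266 genes for RGS2 across calves, 143 rising with it (1.22% of the core genes) and 123 falling (1.05%), and 294 within groups, 134 rising (1.14%) and 160 falling (1.36%). For CCL14 there were 182 across calves, 104 rising (0.886%) and 78 falling (0.665%), and 516 within groups, 266 rising (2.27%) and 250 falling (2.13%). The Wald test of DESeq2 and limma also called 0 genes in each of the 4 fits. The lowest adjusted p of the 4 edgeR fits was 0.945, for CCL14 within groups, and the lowest of the other tools were 0.354 (DESeq2, CCL14 within groups) and 0.414 (limma, CCL14 across calves). In the remaining text, partners are therefore described by their order among the core genes. None of the named genes passed a test in these fits. With lane as a covariate, ENSBTAG00000009862 passed with CCL14 across calves (edgeR, adjusted p = 0.0824).

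**Figure D3:**
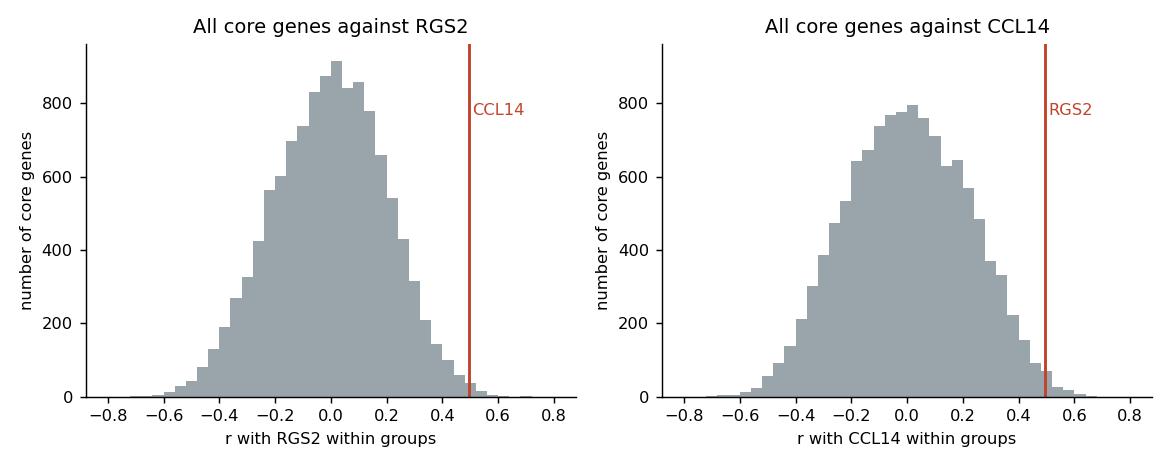
Number of core genes at each correlation with RGS2 (left) and with CCL14 (right) within groups, in steps of 0.04. The red line marks the other gene of the pair at 0.50, inside the right tail of both distributions, which reached from -0.71 to 0.69 for RGS2 and from -0.70 to 0.67 for CCL14.

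Within groups the correlations with RGS2 centred on 0.002 and ran from -0.71 to 0.69, with 45 genes above 0.5 and 68 below -0.5. Symbols were known for 3322 of the core genes, and the genes at either end were mostly without one. The highest were ENSBTAG00000015136 (r = 0.69) and ENSBTAG00000014873 (r = 0.64), and the lowest were ENSBTAG00000003906 (r = -0.71) and ENSBTAG00000002501 (r = -0.66). Among genes with a symbol, a selection added after the values were seen, high correlations were found for MAPRE1, a protein of growing microtubule ends (r = 0.56), CD44, the hyaluronan receptor of lymphocytes, stroma and crypt cells (0.56), and UBAP1, a subunit of the ESCRT-I sorting complex (0.55). They were followed by the galactosyltransferase gene B4GALT1 (0.54) and the cilium transport gene IFT57 (0.54). B4GALT1 had an r of 0.43 without TRT12_H replicate 2, while MAPRE1 stood at 0.56 without that calf.

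CD44 shows what such a correlation looked like calf by calf. It ran from 54.1 to 127 CPM, with a median of 88.1 CPM, far above RGS2. In TRT12_H, CD44 was highest at 110 CPM in replicate 1, the calf with the most RGS2 of that group, and at 69.5, 75.9 and 65.6 CPM in the others. In TRT6_H it was at 91.2, 79.1, 82.3 and 61.97 CPM, lowest in replicate 4, where RGS2 was lowest as well. In TRT6_C, CD44 was lowest at 54.1 CPM in replicate 5, whose RGS2 was at the middle of its group. The slope within groups was 0.23 ± 0.07 log2 units of CD44 per log2 unit of RGS2 (SE, edgeR, adjusted p = 0.9999). Between groups the relation of CD44 to RGS2 had the opposite sign, with an r of -0.47 over the 6 means.

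At the negative end within groups, the lowest genes with a symbol were MSL1, a scaffold of a histone acetyltransferase complex (r = -0.60), CFTR, the chloride channel of crypt cells (-0.57), BLA-DQB, a beta chain of class II histocompatibility molecules (-0.57), and WFDC2, a secreted epithelial protein (-0.56). CFTR ranged from 79.2 to 168 CPM, and its slope was -0.22 ± 0.07 (SE, edgeR, adjusted p = 0.9999). Among TRT6_H calves CFTR was at 111, 123, 168 and 166.3 CPM, high in the 2 calves that were low in RGS2. In TRT12_C it was at 107, 110, 126, 134 and 79.2 CPM, and both calves with no RGS2 read lay inside that range. BLA-DQB spread most, from 7.67 to 84.5 CPM, and since class II genes are a family of near-identical copies its counts are uncertain. Without TRT12_H replicate 2, the r of CFTR was -0.58 and that of MSL1 was -0.54.

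The correlations with CCL14 within groups centred on 0.001, with 90 genes above 0.5 and 75 below -0.5. The 6 highest all had symbols, namely RPL30, a protein of the large ribosomal subunit (r = 0.67), NUSAP1, which binds spindle microtubules in mitosis (0.67), EIF3A, a core subunit of initiation factor 3 (0.64), SEL1L, which serves degradation of misfolded proteins of the endoplasmic reticulum (0.63), THRAP3, a splicing and transcription cofactor (0.62), and DFNA5, a gasdermin (0.61). Next among genes with a symbol came the elongation factor gene EEF1B2 (0.61) and the ribosomal gene RPL22 (0.61). The lowest were ENSBTAG00000005838 (r = -0.70) and ENSBTAG00000007000 (r = -0.70), and with a symbol EXOC2, a subunit of the exocyst (-0.59), PTK2, the focal adhesion kinase (-0.59), and KLHL42, an adaptor of a cullin ubiquitin ligase (-0.58). EXOC2 also ran opposite to RGS2, with an r of -0.53, computed in the same 27 calves. Leaving out TRT12_H replicate 2, EXOC2 had an r of -0.37 with CCL14 and -0.34 with RGS2, and PTK2 of -0.39 with CCL14. The partners of the 2 genes overlapped. Over all core genes, the r with RGS2 and the r with CCL14 were themselves correlated at 0.64. The 100 highest genes of each (0.852% of the core genes) shared 14, and the 100 lowest shared 17. B4GALT1 had an r of 0.57 with CCL14, and EIF3A and NUSAP1 each had 0.47 with RGS2. These values are a description, since all come from the same calves. Because the deviations of RGS2 and CCL14 had an r of 0.50, some overlap was fixed in advance and is no separate result.

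RPL30 and NUSAP1 show how much single calves contributed. NUSAP1 was at 21.3, 8.86, 19.7 and 23.5 CPM in the TRT12_H calves and at 18.96, 19.8, 17.7 and 9.41 CPM in the TRT6_H calves. The 2 calves lowest in CCL14 of these groups, TRT12_H replicate 2 and TRT6_H replicate 4, were the 2 lowest of all 27 calves in NUSAP1. In the TRT6_C calves, where CCL14 was highest, NUSAP1 was at 16.6, 11.02, 19.7, 21.5 and 24.1 CPM, all but one of them inside the range of the other groups. RPL30 was at 135, 92.8, 102 and 121 CPM in TRT12_H and at 105, 108, 106 and 76.9 CPM in TRT6_H. Without TRT12_H replicate 2, r with CCL14 was 0.43 for NUSAP1, 0.53 for RPL30, 0.50 for EIF3A and 0.45 for EEF1B2. For SEL1L, r lay between 0.59 and 0.68 whichever calf was left out. The slopes within groups were 0.50 ± 0.14 for NUSAP1 and 0.24 ± 0.07 for RPL30, in log2 units per log2 unit of CCL14 (SE, edgeR, adjusted p = 0.945 for both).

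**Figure D4:**
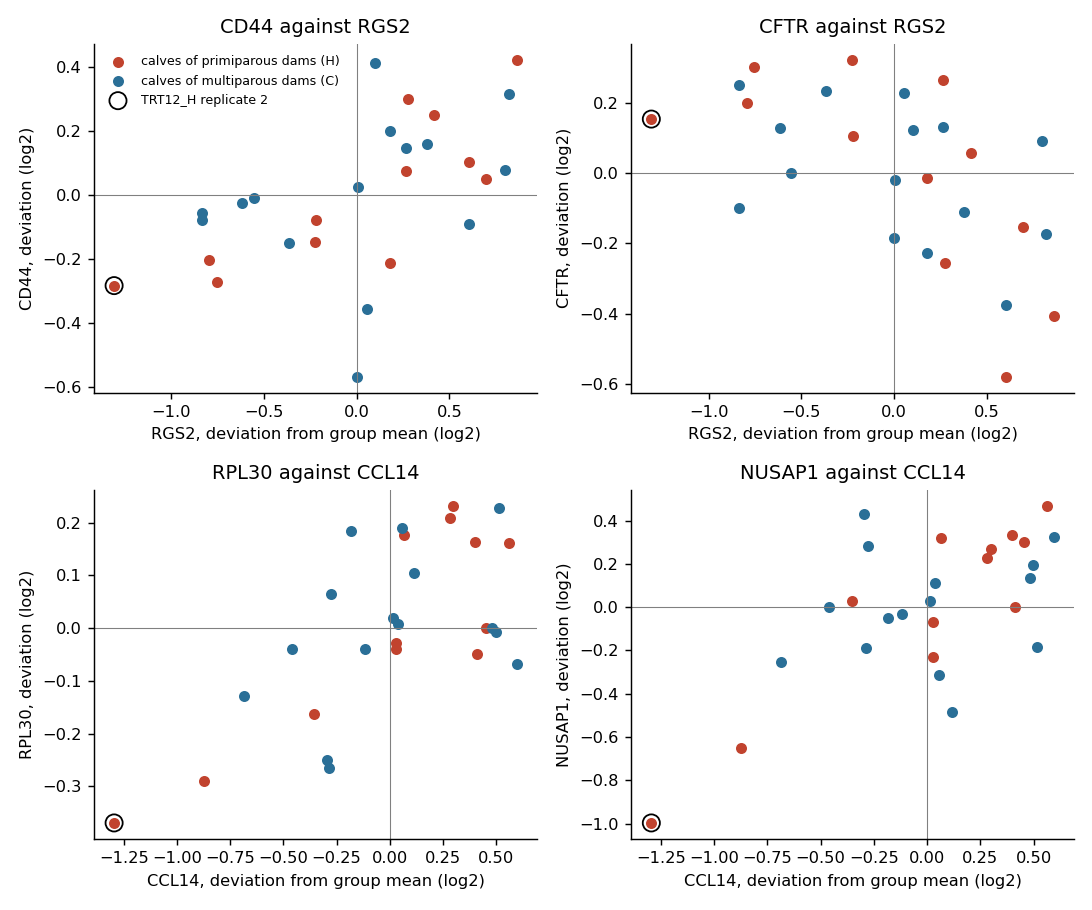
Deviations of CD44 and CFTR from their group means against those of RGS2, and of RPL30 and NUSAP1 against those of CCL14, in log2 units for the 27 calves, with H calves in red, C calves in blue and TRT12_H replicate 2 ringed. The ringed calf lies at the end of both lower panels, where r was 0.67 with all calves and 0.53 (RPL30) and 0.43 (NUSAP1) without it.

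Because RPL30, EIF3A and NUSAP1 stood at the top, 3 lists were drawn up after the values were seen, which makes their counts a description. Of 56 cytosolic ribosomal protein genes, 55 had a positive r with CCL14 within groups, with a median of 0.29, against 50.2% positive and a median of 0.001 over all core genes. Without TRT12_H replicate 2 the median was 0.11. Of 33 elongation and initiation factor genes 28 were positive (median 0.20, and 0.18 without that calf), and of 23 mitotic genes 22 were positive (median 0.30, and 0.08 without it). Between groups the ribosomal genes ran the other way, with a median of -0.53 over the 6 means and 4 of 56 positive. With RGS2, 52 of the 56 ribosomal genes were positive within groups (median 0.18), against 50.4% of all core genes. Their median was -0.01 without TRT12_H replicate 2. The other 2 lists were mostly positive with RGS2 too. These were 27 of the 33 elongation and initiation factor genes (median 0.17, and 0.11 without that calf). They also included 23 of the 23 mitotic genes (median 0.20, and 0.08 without it). Ribosomal protein genes have many near-identical copies, so that their counts are uncertain, and genes of these lists may move with one another, so that their counts do not add up as separate observations.

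RGS2 is itself an immediate early gene, and 10 core genes of that class had a symbol. Of these, 9 had a positive r with RGS2 within groups (median 0.22, against 0.002 and 50.4% positive over all core genes). The highest were MCL1, which protects cells from apoptosis (r = 0.50), ZFP36L1, which hastens decay of AU-rich transcripts (0.37), and BTG2, an antiproliferative gene (0.36). MCL1 had an r of 0.51 with CCL14, ZFP36L1 of 0.36 and BTG2 of 0.19, and 8 of the 10 were positive there (median 0.19). Without TRT12_H replicate 2, MCL1 had an r of 0.31 with RGS2 and 0.24 with CCL14, and ZFP36L1 of 0.26 and 0.22. JUN, the transcription factor gene, was at 0.08 with RGS2 and -0.01 with CCL14. Across calves the medians of the list were -0.08 for RGS2 and -0.03 for CCL14, so a positive median was seen within groups alone. Of the 10 genes, 3 were positive across calves with RGS2, among them BTG2 (0.28) and ZFP36L1 (0.06). With CCL14, 3 were positive as well, among them MCL1 (0.18).

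Genes of Gq signalling, which RGS2 damps, and of cyclic GMP signalling were taken as 1 list, and they lay on both sides of RGS2. Of 17 core genes of Gq and cyclic GMP signalling, 9 were positive with RGS2 (median 0.08) and 10 with CCL14 (median 0.04). PDE5A, the phosphodiesterase that ends the cyclic GMP signal in smooth muscle, was highest with an r of 0.45 with RGS2 and 0.36 with CCL14. The inositol trisphosphate receptor gene ITPR1 (r = -0.41) and the endothelin receptor gene EDNRA (-0.36), both parts of the Gq response, lay at the other end with RGS2. Without TRT12_H replicate 2, ITPR1 was at -0.28 and EDNRA at -0.42, and EDNRA was at -0.24 without TRT12_H replicate 1. Across calves ITPR1 had an r of 0.26 with RGS2 and EDNRA of -0.39. ROCK1, a kinase that maintains contraction, had an r of 0.43 with CCL14, and of 0.25 without TRT12_H replicate 2. RGS5, the pericyte member of the RGS family and the only other core member with a symbol, had an r of -0.17 with RGS2 and 0.25 with CCL14 (0.15 without TRT0_C replicate 4). RGS17 was too low to be a core gene, at a mean of 1.96 CPM, and had an r of 0.30 and 0.54 with the 2 genes.

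Of 15 smooth muscle markers, 14 were positive with RGS2 within groups (against 50.4% of all core genes), with a median of 0.18, led by the intermediate filament gene DES (r = 0.34, and 0.21 without TRT6_C replicate 2), the enteric actin gene ACTG2 (0.33) and CALD1 (0.31), which encodes caldesmon. Across calves 4 of the 15 were positive with RGS2, with a median of -0.06. With CCL14, 10 of 15 were positive within groups and the median was 0.01. Whether the 2 medians differ was not tested. The summed level of these markers ran from 9158 to 18622 CPM over the calves and had an r of 0.20 with RGS2 within groups (0.40 without TRT12_H replicate 2), and their part in the level of RGS2 was not tested. Fibroblast markers were positive in 9 of 11 with RGS2 (median 0.21) and in 10 of 11 with CCL14 (median 0.11). With RGS2 they were led by COL1A2 at 0.29 and DPT at 0.27, with PDGFRB at -0.33. With CCL14 they were led by DCN at 0.36. Without TRT12_H replicate 2, COL1A2 was at 0.48, DPT at 0.43 and PDGFRB at -0.21 with RGS2, and DCN at 0.51 with CCL14. The summed level of the fibroblast markers had an r of 0.17 with RGS2 and -0.02 with CCL14. Without that calf these were 0.38 and 0.23. Across calves no fibroblast marker was positive with either gene. Epithelial markers were positive in 8 of 13 with RGS2 (median 0.03) and in 11 of 13 with CCL14 (median 0.12), and PIGR, the polymeric immunoglobulin receptor gene, was highest with CCL14 at 0.29 (0.16 without TRT12_H replicate 2). Summed, the epithelial markers ran from 4292 to 7085 CPM. The 5 endothelial markers had medians of 0.03 with both genes.

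**Figure D5:**
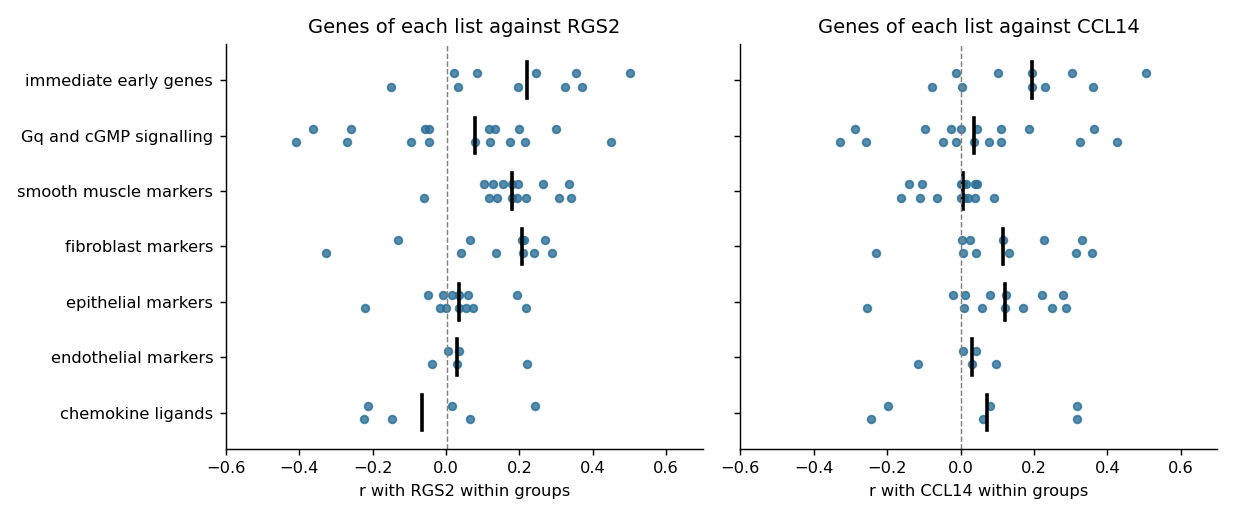
Correlation within groups of each core gene of 7 lists with RGS2 (left) and with CCL14 (right), with a black bar for the median of the list and a dashed line for the median of all core genes. The immediate early genes had medians of 0.22 and 0.19, and the smooth muscle markers 0.18 with RGS2 and 0.01 with CCL14.

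Other chemokine genes lay on both sides of CCL14. Of the 6 core chemokine ligand genes, 4 were positive with CCL14 within groups (median 0.07) and 3 with RGS2 (median -0.07). CCL28, a mucosal chemokine of epithelium, and CXCL5, which attracts neutrophils, each had an r of 0.32 with CCL14 (0.20 for CCL28 without TRT6_H replicate 4 and 0.20 for CXCL5 without TRT12_H replicate 2), while the T cell chemokine CCL5 stood at -0.24. CCL16, which lies beside CCL14 in the RefSeq table, was at a mean of 2.47 CPM and had an r of -0.24 with CCL14. CX3CR1 was the only core chemokine receptor gene with a symbol, at -0.11 with CCL14 and -0.26 with RGS2, and CCR1 was not analysed here. Immune markers were few. Of the 2 core macrophage and myeloid markers, CSF1R stood at 0.08 with RGS2 and 0.17 with CCL14, and TYROBP at -0.11 and 0.09. Without TRT12_H replicate 2, CSF1R was at -0.03 and 0.06 with the 2 genes, and TYROBP at -0.31 and -0.12. The leukocyte gene PTPRC was at 0.07 with both. Of 3 enteric neuron and glia markers, 1 was positive with RGS2 (median -0.11) and 2 with CCL14 (median 0.09), and S100A12 of neutrophils stood at -0.09 and 0.08.

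Across calves, which joins differences between groups with those inside them, the core genes most like RGS2 with a symbol were HOMER2, a scaffold of calcium signalling (r = 0.57), CDKN3, a phosphatase of the cell cycle (0.52), ZNF283 (0.45, and 0.29 without TRT12_C replicate 3) and BIRC2, an inhibitor of apoptosis (0.45), and the least like were UBXN2B, a cofactor of the p97 ATPase (-0.60), GLRX2, a mitochondrial glutaredoxin (-0.49), and ATP6V0E2, a subunit of the proton pump (-0.49). CDKN3 was alike within groups (r = 0.52), whereas BIRC2 was not (0.04) and had its likeness between groups (r = 0.89 over 6 means). BIRC2 was lowest in TRT12_C at 4.91 ± 1.92 CPM and in TRT0_H at 5.31 ± 2.29 CPM (SD), the groups lowest in RGS2, and at 6.94 to 7.80 CPM in the others. UBXN2B had the reverse order, at 9.32 ± 3.25 CPM in TRT12_C and 8.73 ± 1.17 CPM in TRT0_H against 6.75 to 7.24 CPM in the others.

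For CCL14 the core genes with a symbol most alike across calves were CNRIP1, which binds the cannabinoid receptor (r = 0.58), ZNF419 (0.54), TP53INP1, a p53 target (0.48), and RAD18, of post-replication repair (0.48). Without TRT6_H replicate 4, r was 0.35 for CNRIP1 and 0.31 for RAD18. The least alike were ENSBTAG00000009862 (-0.71) and, with a symbol, ARFGEF2, an exchange factor of vesicle traffic (-0.53), TCN1, the vitamin B12 binding haptocorrin of mucosal secretions (-0.52), MRPL27, a mitochondrial ribosomal protein (-0.49), and METTL7A (-0.49). TCN1 was at 138 ± 56.6 CPM in TRT6_C and 161 ± 73.4 CPM in TRT0_C, where CCL14 was highest, and at 273 ± 74.5 CPM in TRT6_H, where CCL14 was lowest (SD). Inside groups TCN1 had an r of -0.13 with CCL14. CNRIP1 was at 12.5 ± 2.25 CPM in TRT6_C and 6.94 ± 3.72 CPM in TRT6_H, with 9.86 to 13.05 CPM elsewhere.

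Over the 6 group means, 91 core genes had an r above 0.9 with RGS2 and 89 an r below -0.9, together 1.53% of all. Of the 91, 38 had a positive r within groups, and of the 89, 36 had a negative one. With CCL14, 98 genes were above 0.9 and 110 below -0.9, together 1.77%, and 26 and 31 of them had the same sign within groups. Over all core genes, 43.2% had the same sign within and between groups for RGS2 and 35.7% for CCL14. With 6 means a high correlation is reached easily, and these counts are a description. Of the 50 genes highest with RGS2 within groups, 21 had a positive r between groups, and of the 50 lowest, 22 had a negative one. For CCL14 these counts were 13 and 6. Over all core genes, 48.4% were positive between groups with RGS2 and 47.7% with CCL14.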

How the data were processed

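Colon RNA of 27 calves was sequenced from paired-end libraries. Per the labels and the study's methods, the authors aligned reads to UMD3.1 with TopHat2 2.1.1, handled them with SAMtools 1.4, and deposited raw read counts per Ensembl gene from HTSeq, leaving out reads of several genes. Whether strand was used is not given in the sources used here. Gene symbols came from the study's supplementary tables (4046 identifiers matched). The 2 genes and all lists were chosen with earlier results of these data known.

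From the counts, TMM factors (0.887 to 1.15) were computed on the 13943 genes that reached 1 CPM in 5 or more of the 9 calves per treatment. Levels given per calf are CPM of all gene counts, and correlations use log2 TMM CPM with a prior count of 2. Partners were tested over 11734 core genes with edgeR 4.0.16 (quasi-likelihood slope on the log2 level, Benjamini-Hochberg adjusted p of 0.10), with an intercept alone (across calves) or the 6 group means (within groups). Relations between measures used 100000 two-sided permutations in Python 3.11.15 with scipy 1.17.1. DESeq2 1.42.0 and limma 3.58.1 (R 4.3.3) served as alternatives. The scripts were tested on simulated data. Named were the core genes with the highest and lowest r per gene and scope, the 3 members of a list with the largest r, and, added after values were seen, the ends among genes with a symbol, further list members, and genes named for a contrast. Alternatives covered normalization, test, prior count, filter, lane and each calf left out. Not every gene that the rule names is reported here.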

Additional observations from a re-analysis of the deposited data

Results flagged for a closer look

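In 12 sets of 4 or 5 calves (2 genes in 6 groups), the lowest or highest calf stood far from the others in 2 sets, where chance gives about 1 in 20. CCL14 was at 16.95 CPM in TRT6_C replicate 4, above the next calf of its group at 10.8 CPM. It was at 1.97 CPM in TRT12_H replicate 2, below the next calf at 7.61 CPM, and RGS2 was lowest in the same calf of that group at 1.31 CPM. The correlation of RGS2 and CCL14 within groups differed between calves of primiparous and multiparous dams by 0.80 (p = 0.0172, permutation test, 12 and 15 calves). In the same permutation test, that difference was 0.62 without TRT12_H replicate 2 (permutation p = 0.0828) and 0.42 without TRT6_H replicate 4 as well (p = 0.282).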

How the results depend on the processing

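The counts of partners stayed at 0 in each of the 4 fits under another normalization, prior count or test, with ranks, with the wider set of 13943 genes and with any 1 calf left out, and in the 2 within-group fits with treatment means in place of group means. An adjusted p of 0.05 can call no gene where 0.10 called none, and was not run apart. Without a filter on low counts, 1 gene was called with RGS2 within groups, 4 with CCL14 across calves and 3 with CCL14 within groups, 6 genes in all that had counts in 4 to 16 of 27 calves. With lane as a covariate, 1 gene was called with CCL14 across calves (ENSBTAG00000009862, falling, adjusted p = 0.0824 by edgeR). The correlation of RGS2 and CCL14 within groups of 0.50 was 0.39 as Spearman's rho, 0.33 on CPM in place of log2 and 0.22 with treatment means only, none of them with a permutation p under 0.05, and 0.27 to 0.58 with 1 calf left out. The settings on the CPM scale, with treatment means and without named calves were chosen after seeing the data. No paired analysis applied, because each sample came from a different calf that received 1 treatment. Of 138 correlations of named genes under 7 settings each, 959 of 966 values stayed within their leave-one-out standard error. The settings include the lowest and highest r with 1 calf left out, and the error is computed from those same leave-one-out values. Such extremes can hardly fall outside it, so the count does not measure dependence on single calves. NUSAP1, for example, went from an r of 0.67 with CCL14 to 0.43 without TRT12_H replicate 2. Of the 966 values, 26 changed sign, all of them in list members with an r of at most 0.16 in size.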
